A study of Mus musculus with 24 samples.

Results

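The PGC-1 coactivators and the transcription factors through which they act on mitochondria were followed in sensory neurons that had lost the tuberous sclerosis gene Tsc2. The 10 genes were chosen by gene symbol, out of 47643 gene identifiers in the count files: the coactivators Ppargc1a, Ppargc1b and Pprc1, the nuclear receptors Esrra, Esrrg and Ppara, the DNA-binding factors Nrf1, Gabpa and Yy1, and Tfam, the packaging and transcription factor of mitochondrial DNA. No count had to pass a limit for a gene to be chosen, but the list was put together with genotype differences from an earlier look at these counts known, that of Ppargc1b among them. Its genotype difference is therefore given as a description without a p-value, and the p-values of the other 9 members are no independent support for anything.

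RNA was sequenced from 24 libraries of about 100 sorted GFP-positive cells, 12 per genotype. Each of 4 control and 4 Nav-Tsc2 mice gave 3 technical libraries. These were added up, and the 8 mice were the units of every test. Control mice carried Nav1.8-Cre, 1 floxed and 1 wild-type Tsc2 allele (Tsc2 flox/+) and the Rosa26-ZsGreen reporter, so their labelled neurons kept 1 working allele. Nav-Tsc2 mice carried the same Cre and reporter with Tsc2 flox/null. The null allele was in every cell of these mice, and the floxed one was lost where Nav1.8-Cre is active, mostly nociceptors with a part of the myelinated neurons, from late embryonic life on. All mice were 8 to 9 weeks old and of a mixed C57BL/6 and AJ strain. In either genotype the first pair of mice, 1 and 2, were males and the second pair, 3 and 4, females. Every ganglion was the L4 dorsal root ganglion on the side opposite a sciatic nerve crush made 3 days earlier, so both genotypes had an injury elsewhere.

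PGC-1α, PGC-1β and PRC, the products of Ppargc1a, Ppargc1b and Pprc1, do not bind DNA themselves. They dock on receptors such as ERRα, ERRγ and PPARα and on NRF1 and raise the transcription of genes for respiratory chain subunits, fatty acid oxidation and mitochondrial DNA maintenance. GABPA, the DNA-binding subunit of the factor also called NRF2, and NRF1 act on the Tfam promoter, and TFAM then carries the programme to the mitochondrial genome. Tsc2 is an inhibitor of mTORC1, a kinase complex that is known to act on mitochondrial genes through YY1 and PGC-1α. In long sensory axons mitochondria are made mostly in the cell body and moved outward.

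The mice had between 47959617 and 61290435 counts on genes. All 10 members passed edgeR's filter on low counts and were among the 17178 genes tested. Levels are given as normalized CPM, counts scaled to a common library size by the TMM method, and a gene was called at an adjusted p under 0.05 in edgeR's quasi-likelihood F-test with a log2 fold change over 0.5 or under -0.5. Tsc2, the targeted gene, had 13.4, 24.7, 21.5 and 24.1 CPM in the control mice and 8.70, 8.51, 7.30 and 10.9 CPM in the Nav-Tsc2 mice, with no overlap (log2 fold change -1.24, SE 0.22, adjusted p = 0.00400 from edgeR). The 10 sensory neuron markers summed to between 15318 and 18552 CPM in control and between 16257 and 18733 CPM in Nav-Tsc2 mice, so the labelled cell type was present in both. Within that list Isl1, Rbfox3 and Snap25 were called lower, Snap25 with 3499 to 5012 CPM in control and 1829 to 2285 CPM in Nav-Tsc2 mice, and Prph was called higher, with 787 to 1126 and 1210 to 1892 CPM. The 12 glial markers summed to 3023 to 3179 CPM in control and 2018.5 to 2607 CPM in Nav-Tsc2 mice, the 6 endothelial markers to 0.326 to 1.85 and 7.72 to 20.1 CPM, and the 7 macrophage markers to 1.95 to 6.33 and 7.76 to 19.7 CPM. The endothelial genes Cldn5 and Cdh5 and the macrophage genes C1qa and C1qc stayed under 1 CPM in every mouse. All 3 endothelial markers tested, Flt1, Kdr and Ly6c1, were called higher, as was the macrophage marker Cx3cr1, and the glial marker S100b was called lower. Flt1 had at most 0.0602 CPM in a control mouse and 3.67 to 12.7 CPM in Nav-Tsc2 mice, Cx3cr1 at most 0.0602 and 2.82 to 9.33 CPM, and S100b 712 to 1112 and 27.9 to 187.5 CPM. Not every marker of these lists was higher. The endothelial gene Pecam1 reached 1.59 CPM in a control mouse and less than that in every Nav-Tsc2 mouse. The macrophage gene C1qb had 1.02 to 3.19 CPM in control and 0 to 2.03 CPM in Nav-Tsc2 mice. The 6 fibroblast markers summed to 73.1 to 236.5 CPM in control and 121 to 196 CPM in Nav-Tsc2 mice, and the 5 red blood cell markers to 1.63 to 2.80 and 0.473 to 0.672 CPM. The part of these other cells in the results was not tested.

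Ppargc1b was the one member whose mice did not overlap between genotypes. It lies on chromosome 18 of GRCm38, from 61298136 to 61400431 on the minus strand, and no other annotated exon overlaps its exons. Normalized CPM of Ppargc1b was 2.86, 1.86, 2.12 and 2.57 in control replicates 1 to 4 and 16.7, 18.9, 14.8 and 21.8 in Nav-Tsc2 replicates 1 to 4. The lowest Nav-Tsc2 mouse thus lay far above the highest control mouse, and the spread within each genotype was small beside the gap. Mean levels were 2.35 ± 0.451 CPM (SD, n = 4) in control and 18.0 ± 3.01 CPM (SD, n = 4) in Nav-Tsc2 mice, a log2 fold change of 2.94 (SE 0.22) or a 7.66-fold higher level. More labelled cells of a kind that expresses the gene and more of its RNA per cell cannot be told apart in sorted pools of this sort.

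The single libraries showed the same separation for Ppargc1b. Its count was above 0 in all 24 libraries, with 0.0659 to 3.89 CPM and a median of 2.35 CPM in the 12 control libraries and 6.84 to 24.01 CPM with a median of 18.2 CPM in the 12 Nav-Tsc2 libraries. The low end of the Nav-Tsc2 range was 1 library, 3C, whose sister libraries 3A and 3B had 17.9 and 18.4 CPM. The low end of the control range was library 2B, with a single count, beside 2.91 and 2.36 CPM in 2A and 2C. In the 16 other fits tried the log2 fold change of Ppargc1b lay between 2.83 and 3.26, which is again a description. Males and females of a genotype had nearly the same means, 2.36 and 2.34 CPM in control and 17.8 and 18.3 CPM in Nav-Tsc2 mice.

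**Figure D1:**
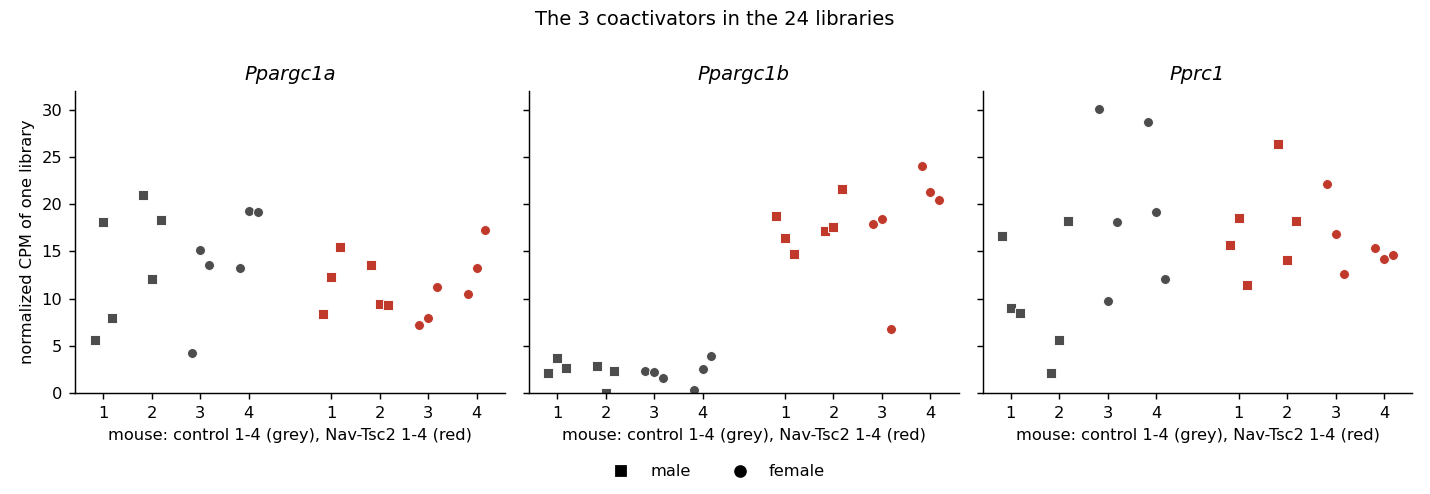
Normalized CPM (vertical axis, linear) of Ppargc1a, Ppargc1b and Pprc1 in each of the 24 libraries, grouped by mouse along the horizontal axis, with control in grey, Nav-Tsc2 in red, squares for males and circles for females. All 12 Nav-Tsc2 libraries lie at or above 6.84 CPM for Ppargc1b and all 12 control libraries at or below 3.89 CPM, whereas the libraries of the other coactivators overlap.

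Ppargc1a, the coactivator best known from brown fat and muscle, lies on chromosome 5 from 51454250 to 51567726 on the minus strand. Its level was 10.9, 17.3, 12.2 and 17.7 CPM in control replicates 1 to 4 and 12.1, 10.6, 8.57 and 13.6 CPM in Nav-Tsc2 replicates 1 to 4. The mice overlapped, although the 2 highest values were both from control mice. The mean was 14.5 ± 3.47 CPM (SD, n = 4) in control and 11.2 ± 2.13 CPM (SD, n = 4) in Nav-Tsc2 mice. The difference missed the threshold, with a log2 fold change of -0.37 (SE 0.22, 95% interval -0.86 to 0.11, adjusted p = 0.264 from edgeR), and its adjusted p lay between 0.154 and 0.484 in the 16 other fits. The 3 libraries of a mouse could differ widely for Ppargc1a, as in control replicate 1 with 5.64, 18.1 and 7.97 CPM.

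Pprc1, the growth-regulated relative, lies on chromosome 19 from 46044886 to 46072915, and 2.82% of its exon sequence overlaps Ldb1 on the other strand, which counts from an unstranded kit cannot separate. Its level was 10.8, 9.75, 16.4 and 18.5 CPM in control replicates 1 to 4 and 15.0, 18.7, 18.7 and 14.6 CPM in Nav-Tsc2 replicates 1 to 4. The 2 control males were the lowest of the 8 mice and the other 6 overlapped. Across all mice the genotype difference of Pprc1 did not pass (log2 fold change 0.27, SE 0.23, 95% interval -0.23 to 0.78, adjusted p = 0.445 from edgeR).

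To compare genes with each other, CPM was divided by the length of each gene's merged annotated exons in kilobases. This length counts every annotated exon, and which of them these cells use was not measured. The shares, ratios and order that follow depend on it. On this scale the 3 coactivators summed to 5.00 ± 0.928 CPM per kb (SD, n = 4) in control and 8.88 ± 0.847 CPM per kb (SD, n = 4) in Nav-Tsc2 mice. Ppargc1b made up 17.6, 10.0, 10.6 and 10.3% of that sum in control replicates 1 to 4 and 49.8, 50.9, 46.4 and 55.5% in Nav-Tsc2 replicates 1 to 4. Ppargc1a made up 44.2% ± 8.54 (SD, n = 4) in control and 19.1% ± 2.69 (SD, n = 4) in Nav-Tsc2 mice. The ratio of Ppargc1b to Ppargc1a per length was between 0.177 and 0.435 in the control mice and between 2.28 and 2.96 in the Nav-Tsc2 mice, so that every control mouse had more Ppargc1a than Ppargc1b and every Nav-Tsc2 mouse the reverse. These ratios use the difference for which the list was known and are a description.

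**Figure D2:**
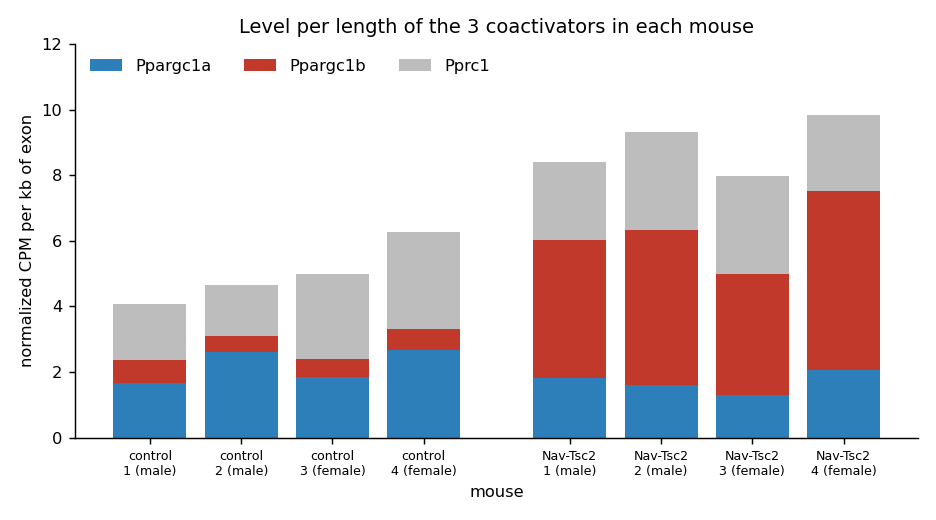
Stacked level per length (normalized CPM per kb of exon, vertical axis from 0) of Ppargc1a, Ppargc1b and Pprc1 in each of the 8 mice. The red Ppargc1b segment is 10.0 to 17.6% of the bar in control mice and 46.4 to 55.5% in Nav-Tsc2 mice.

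Ordered by mean level per length in control mice, the members ran from Tfam (3.29 ± 0.734 CPM per kb, SD, n = 4) through Gabpa (2.88), Pprc1 (2.21), Ppargc1a (2.20), Yy1 (1.83) and Nrf1 (1.20) to Ppargc1b (0.589), Esrrg (0.219), Esrra (0.186) and Ppara (0.0895). Of the neighbours in this order, Nrf1 and Ppargc1b were the one pair whose mice did not overlap. In Nav-Tsc2 mice Ppargc1b came first with 4.52 ± 0.755 CPM per kb (SD, n = 4), overlapping with Tfam at 3.44 ± 0.574 CPM per kb (SD, n = 4), followed by Gabpa (2.75), Pprc1 (2.66), Yy1 (2.49), Ppargc1a (1.70), Nrf1 (1.25), Esrra (0.287), Esrrg (0.116) and Ppara (0.0635). There the neighbours Yy1 and Ppargc1a, and Nrf1 and Esrra, did not overlap. The 3 nuclear receptors were thus at the bottom of the order in both genotypes.

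**Figure D3:**
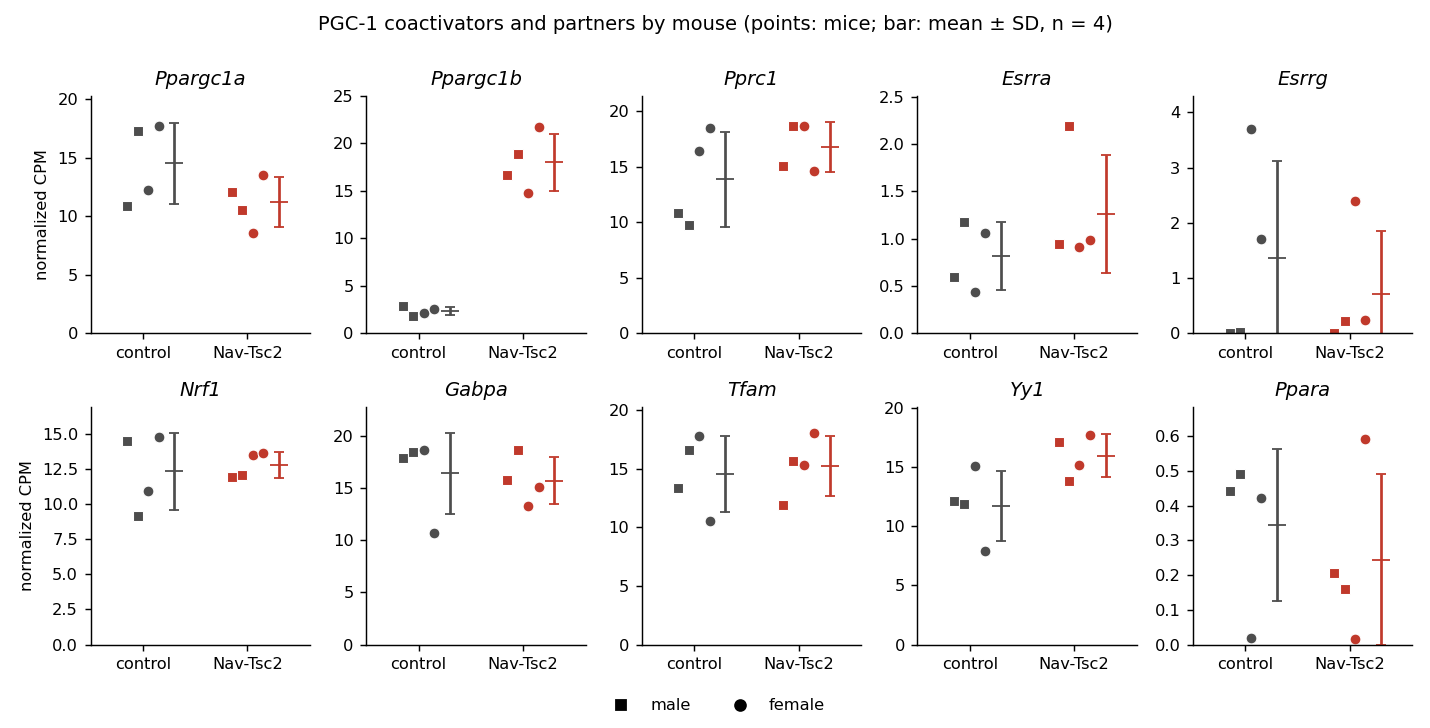
Normalized CPM (vertical axes from 0, a different range in each panel) of the 10 members in the 8 mice, by genotype, with squares for males and circles for females and a bar for the mean ± SD of 4 mice. The mice of Ppargc1b do not overlap between genotypes and those of the other 9 members do, a description without the share over all genes.

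Esrra encodes ERRα, an orphan receptor whose activity depends on PGC-1 coactivators. It had 0.593, 1.17, 0.434 and 1.06 CPM in control replicates 1 to 4 and 0.946, 2.19, 0.915 and 0.982 CPM in Nav-Tsc2 replicates 1 to 4. One Nav-Tsc2 mouse stood above the other 7, which overlapped. The log2 fold change of Esrra was 0.62 (SE 0.53, 95% interval -0.56 to 1.81, adjusted p = 0.456 from edgeR), and a change of up to 3.50-fold lay within the interval. Without Nav-Tsc2 replicate 2 the log2 fold change was 0.21, and with the 24 libraries fitted by limma-voom it was 1.49 (adjusted p = 0.0997). Of its exon sequence, 3.74% overlaps Mir6990 and Trmt112.

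Esrrg encodes ERRγ, a close relative of ERRα known from tissues of high oxidative demand. Its level was 0, 0.0189, 3.71 and 1.71 CPM in control replicates 1 to 4 and 0, 0.230, 2.40 and 0.237 CPM in Nav-Tsc2 replicates 1 to 4. Counts were held by few libraries: 9 of the 12 control libraries and 5 of the 12 Nav-Tsc2 libraries had none, while control libraries 3B and 4A had 205 and 85 counts and Nav-Tsc2 libraries 3A and 3C had 70 and 67. Among the mice with any Esrrg count, the median share held by the largest library, of about 100 cells, was 96.4%. One of these mice, control replicate 2, had a single count. With the log2 fold change at -0.91 and its 95% interval from -4.73 to 2.90 (adjusted p = 0.761 from edgeR), no genotype difference of Esrrg was detectable at this depth. Without control replicate 3 the log2 fold change was 0.33, and with sex as a covariate it was 0.47.

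Ppara, the fatty acid receptor that turns on β-oxidation genes in liver, was the lowest of the 10. It had 0.441, 0.492, 0.0181 and 0.422 CPM in control replicates 1 to 4 and 0.206, 0.159, 0.0163 and 0.592 CPM in Nav-Tsc2 replicates 1 to 4, and replicate 3 was the lowest mouse in both genotypes. These levels rest on 74 counts in all control and 55 in all Nav-Tsc2 mice, with none in 7 and 6 of the 12 libraries. The log2 fold change of Ppara was -0.49 (95% interval -2.84 to 1.86, adjusted p = 0.795 from edgeR), which leaves a fold between 0.139 and 3.63 within its error. Without Nav-Tsc2 replicate 4, the mouse with the highest level, the log2 fold change of Ppara was -1.43, and leaving out Nav-Tsc2 replicate 3 gave -0.10.

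Nrf1, a factor that binds the promoters of many nuclear genes for mitochondria, had 14.5, 9.15, 10.98 and 14.8 CPM in control replicates 1 to 4 and 11.99, 12.1, 13.5 and 13.7 CPM in Nav-Tsc2 replicates 1 to 4. All Nav-Tsc2 mice lay inside the control range. Its log2 fold change was 0.05 (SE 0.19, 95% interval -0.36 to 0.47, adjusted p = 0.881 from edgeR), so a change beyond 1.38-fold up or 0.778-fold down lay outside the interval.

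Gabpa had 17.8, 18.4, 18.6 and 10.6 CPM in control replicates 1 to 4 and 15.7, 18.7, 13.2 and 15.1 CPM in Nav-Tsc2 replicates 1 to 4. Control replicate 4 was far below the other control mice, and 6.98% of the exon sequence overlaps Atp5j on the other strand. The genotype difference was -0.06 on the log2 scale (SE 0.20, 95% interval -0.52 to 0.39, adjusted p = 0.867 from edgeR).

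Tfam, the target on which the NRF1 and GABP arm converges, had 13.4, 16.6, 17.8 and 10.6 CPM in control replicates 1 to 4 and 11.9, 15.7, 15.4 and 18.1 CPM in Nav-Tsc2 replicates 1 to 4. The genotypes covered almost the same range. The log2 fold change, 0.06 (SE 0.20, 95% interval -0.39 to 0.52, adjusted p = 0.865 from edgeR), placed any change of Tfam between 0.765-fold and 1.43-fold.

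Yy1, a zinc-finger factor that forms a complex with PGC-1α under the control of mTOR, came closest to the threshold among these 9. Its level was 12.2, 11.9, 15.1 and 7.87 CPM in control replicates 1 to 4 and 17.2, 13.8, 15.2 and 17.7 CPM in Nav-Tsc2 replicates 1 to 4. Of the Nav-Tsc2 mice 1 lay below the highest control mouse. Its log2 fold change was 0.44 (SE 0.20, 95% interval -0.02 to 0.90, adjusted p = 0.162 from edgeR), and the adjusted p lay between 0.0591 and 0.322 in the 16 other fits.

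Ppargc1b, whose difference was known when the list was made, is left out of the count of calls. Of the other 9 members 0 were called higher and 0 lower by edgeR, and 0 had an unadjusted p under 0.05. By DESeq2 0 of them were called and 1, Yy1, had an unadjusted p under 0.05. With the 24 libraries fitted by limma-voom, which tested all but Esrrg and Ppara, 0 were called, and Esrra and Yy1 had an unadjusted p under 0.05. Among all 17178 genes tested by edgeR, 9.12% were called higher and 8.00% lower, and 5797 had an unadjusted p under 0.05. Nothing is read from a comparison with these numbers. The median log2 fold change was 0.06 over the 10 members and 0.01 over all genes tested.

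**Figure D4:**
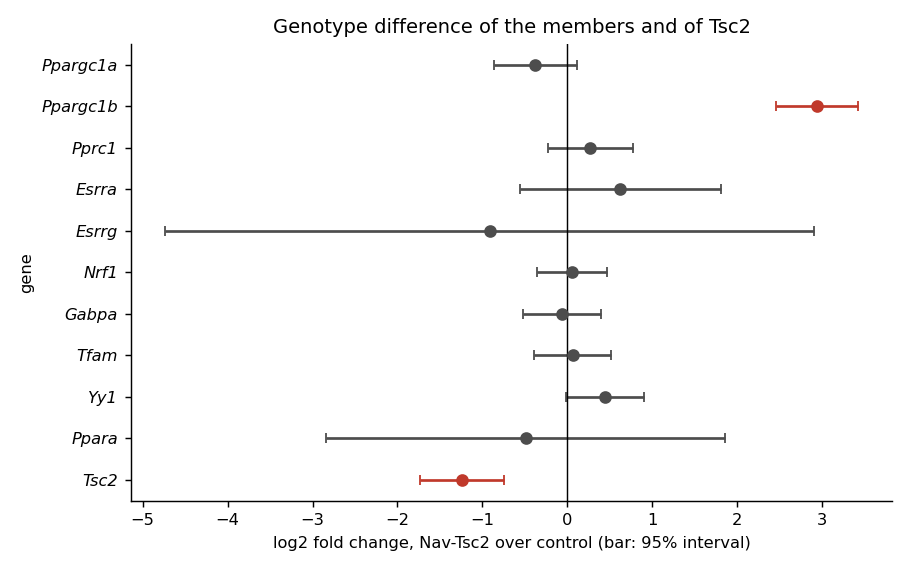
Log2 fold change of Nav-Tsc2 over control mice (horizontal axis) with its 95% interval from edgeR for the 10 members and Tsc2, with Ppargc1b and Tsc2 in red. Ppargc1b is at 2.94, as a description, and Tsc2 at -1.24, the intervals of the other members include 0, and those of Esrrg and Ppara are the widest.

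Several members carry a binding motif of another member just upstream of their start, and 3 such promoters are shown. Of these matches, GABP in Tfam is a link named above. RefSeq promoter windows (GRCm38.p6) were found for 9 of the 10 members, all but Ppargc1b. The 250 bases before each start were searched on both strands for the NRF1 motif GCGCANGCG, the GABP motif CCGGAAGT, the ERR motif AAGGTCA, the YY1 motif AAGATGGCG and the cAMP response element TGACGTCA. No searched motif is contained in another. The last 150 bases before the start are given for Tfam (chr10:71238045-71238194, minus strand), Gabpa (chr16:84834974-84835123, plus strand) and Esrra (chr19:6921809-6921958, minus strand), with the matched motif in capitals, GABP in Tfam, YY1 on the other strand in Gabpa and NRF1 in Esrra.
Tfam: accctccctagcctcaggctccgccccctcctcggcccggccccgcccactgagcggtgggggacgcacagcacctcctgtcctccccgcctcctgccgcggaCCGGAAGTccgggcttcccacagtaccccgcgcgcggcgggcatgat
Gabpa: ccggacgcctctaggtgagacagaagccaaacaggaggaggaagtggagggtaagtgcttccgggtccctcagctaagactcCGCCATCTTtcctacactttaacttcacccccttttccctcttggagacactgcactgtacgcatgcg
Esrra: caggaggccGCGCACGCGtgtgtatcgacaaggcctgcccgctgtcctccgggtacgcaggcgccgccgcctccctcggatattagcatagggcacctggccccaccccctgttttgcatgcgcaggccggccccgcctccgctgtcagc

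The GABP motif of Tfam begins 47 bases before the start, the YY1 motif of Gabpa 68 bases and the NRF1 motif of Esrra 141 bases. Ppara also held an NRF1 motif, whereas the Tfam window held no match to it. Of 32851 windows of the same length in the table, 2.88% held the GABP motif, 0.606% the YY1 motif, 5.16% the NRF1 motif, 4.08% the ERR motif and 1.55% the cAMP response element. Neither of the last pair was found in a member's window. A match describes letters and not a site in use, and the levels of Tfam, Gabpa and Esrra, the genes shown, did not pass the test between genotypes.

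Sex was compared within the same mice with genotype in the model, a measure for which the list was not chosen. None of the 10 members was called by edgeR, against 0.0291% of all genes tested, and 1 member, Esrrg, had an unadjusted p under 0.05. The 4 females had 3.71, 1.71, 2.40 and 0.237 CPM of Esrrg and the 4 males 0, 0.0189, 0 and 0.230 CPM, so that the lowest female stood just above the highest male. The log2 difference of female minus male was 5.17 (SE 1.499, adjusted p = 0.694 from edgeR). By DESeq2, and by edgeR without the low-count filter, Esrrg was called, the smallest adjusted p of these being 0.000356. With limma-voom on the 24 libraries 0 members were called and Gabpa had an unadjusted p under 0.05. Since the Esrrg counts of control replicates 3 and 4 each came from 1 library, and sex goes with the replicate number, what sets these libraries apart was not tested.

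The genotype difference was also compared between the sexes. None of the 10 members was called for this interaction by edgeR, DESeq2 or limma-voom, against 0.00582% of all genes tested by edgeR, and 1 member, Pprc1, had an unadjusted p under 0.05 by edgeR and by DESeq2, with none by limma-voom. Its mean was 10.3 CPM in control males and 17.5 CPM in control females, against 16.9 and 16.6 CPM in Nav-Tsc2 males and females. The log2 fold change of females minus that of males was -0.78 (SE 0.31, 95% interval -1.504 to -0.06, adjusted p = 0.496 from edgeR). For Ppargc1b this difference was 0.05 (95% interval -0.98 to 1.08, adjusted p = 0.994 from edgeR), and for Ppargc1a it was -0.12 (95% interval -1.22 to 0.98, adjusted p = 0.980 from edgeR). With 2 mice per genotype and sex these intervals are wide.

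The genes with library-to-library variation most like that of the coactivators were found over 24 libraries after the genotype means were taken out, among 8444 genes with a mean of at least 10 CPM. For Ppargc1b they were Rusc2 (Pearson's r 0.72), Zfhx4 (0.69), Pds5a (0.68) and Miat (0.68). For Ppargc1a they were 1190002N15Rik (0.75), Clvs2 (0.69), Apba2 (0.65) and Mtfmt (0.65), the last a mitochondrial formyltransferase. The correlation of Ppargc1b with Ppargc1a was 0.09, and with Pprc1 it was -0.04. That of Ppargc1a with Pprc1 was -0.37. Libraries share mouse and depth, so these values are a description.

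Around the members, 186 genes of the pathway were followed in 9 lists, of which 174 were tested. Between genotypes 20 were called higher (11.5%) and 10 lower (5.75%), against 9.12% and 8.00% of all genes tested, and their median log2 fold change was -0.01. Of the 174 genes 144 were not called, and of all 17178 genes tested 14237 were not. The lists were put together with earlier results of these data known, so nothing is read from these shares. The fit with the replicate number as a block called 16 higher and 6 lower. Without Nav-Tsc2 replicate 1 the numbers were 13 and 3, without Nav-Tsc2 replicate 4 there were 13 higher, and without Nav-Tsc2 replicate 2 there were 6 lower. The calls of 11 of the 30 genes were made in all 16 other fits: Ppp3ca, Fnip1, Rxrg, Lonp1, Pdk4, Plin2, Fabp3, Decr1, Slc25a20, Hspa9 and Mff.

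**Figure D5:**
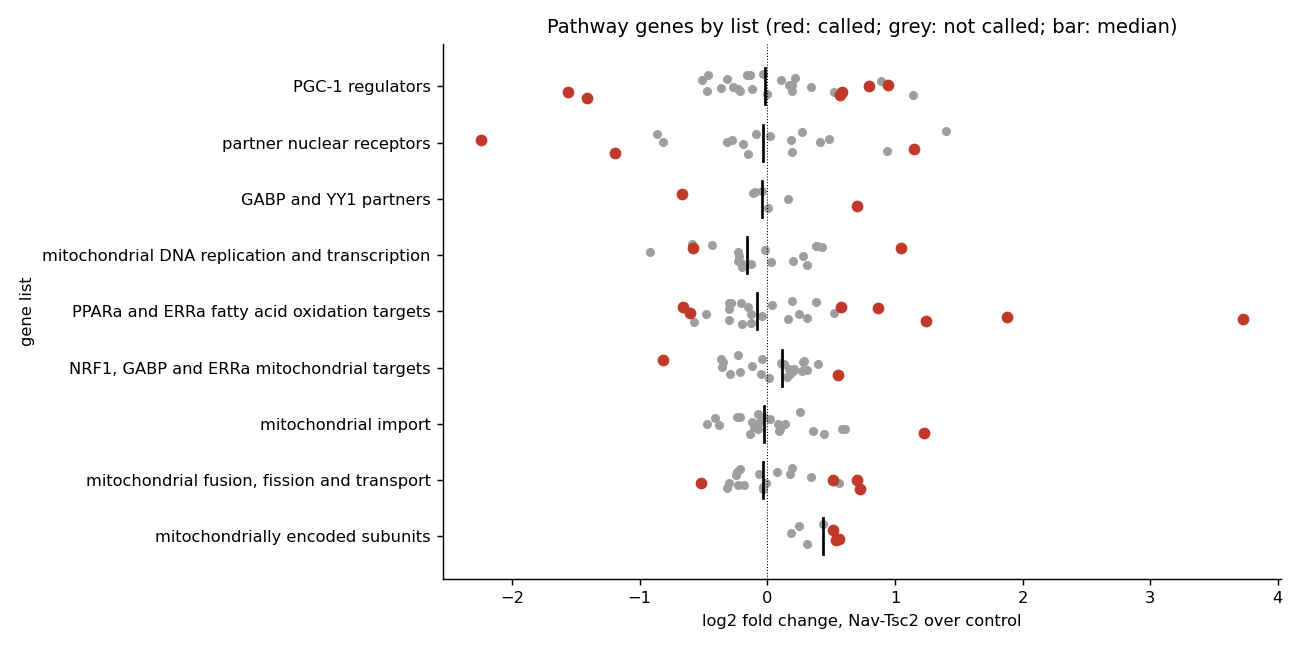
Log2 fold change of Nav-Tsc2 over control mice (horizontal axis) for each tested gene of the 9 pathway lists, called genes in red, others in grey, with a bar at the list's median. Medians lie between -0.16 and 0.11 for all lists but the mitochondrially encoded subunits, at 0.43, and single genes such as Pdk4 at 3.73 and Rxrg at -2.24 stand far out.

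Of 28 regulators of the coactivators, all tested, 4 were called higher and 2 lower, with a median log2 fold change of -0.02. Fnip1, a partner of folliculin that is known to hold back mitochondrial genes in muscle, rose from 13.0 to 20.7 CPM in control to 26.8 to 38.7 CPM in Nav-Tsc2 mice (log2 fold change 0.95, SE 0.19, adjusted p = 0.00769 from edgeR). Ppp3ca, the catalytic subunit of calcineurin, a calcium-dependent phosphatase that is an activator of Ppargc1a in muscle, fell from 1702 to 2715 CPM to 724 to 856 CPM (log2 fold change -1.57, SE 0.14, adjusted p = 0.000114 from edgeR). The other higher calls were the deacetylase Sirt1 (0.80), the AMP-activated kinase subunit Prkaa2 (0.57) and the ubiquitin ligase Rnf34 (0.59), on the log2 scale, and the other lower call was Mef2c (-1.41), a muscle and neuron transcription factor. Of these 4, Sirt1 was called in 8 of the 16 other fits, Prkaa2 in 10, Mef2c in 13 and Rnf34 in 15. The mice whose omission ended the call were control 2, 3 and 4 and Nav-Tsc2 1, 3 and 4 for Sirt1 (adjusted p up to 0.128), control 1 and 2 and Nav-Tsc2 1, 2 and 4 for Prkaa2 (adjusted p up to 0.0637), control 1 and Nav-Tsc2 1 and 3 for Mef2c (adjusted p up to 0.0711), and Nav-Tsc2 4 for Rnf34 (log2 fold change 0.497). Genes that activate and genes that restrain the coactivators were thus both among those higher.

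Of 20 further nuclear receptors that the coactivators can bind, 18 were tested, 1 was called higher and 2 lower, with a median of -0.03. Rxrg, a retinoid X receptor that pairs with PPARs, fell from 24.8 to 51.5 CPM in control to 3.90 to 17.7 CPM in Nav-Tsc2 mice (log2 fold change -2.24, SE 0.47, adjusted p = 0.00880 from edgeR). Nr3c1, the glucocorticoid receptor, was also called lower (log2 fold change -1.20, with edgeR's adjusted p = 0.0157), a call lost without Nav-Tsc2 replicate 2 (-1.12, adjusted p = 0.0530 from edgeR). Rora, an orphan receptor, was the one higher call, at 1.15 on the log2 scale (SE 0.36, adjusted p = 0.0477 from edgeR), with mice that overlapped. Its call was lost in 10 of the 16 other fits, among them the replicate block (adjusted p = 0.0842 from edgeR) and each fit that left out a mouse other than control replicate 3, with an adjusted p of up to 0.132.

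Of 8 genes listed with GABP and YY1, as partners or as other transcription factors, 7 were tested, 1 was called higher and 1 lower, with a median of -0.04. Ell2, a transcription elongation factor, had 12.3 to 21.4 CPM in control and 23.9 to 33.7 CPM in Nav-Tsc2 mice (log2 fold change 0.71, adjusted p = 0.0334 from edgeR), a call lost when control mouse 3 or 4, or Nav-Tsc2 mouse 1, 2 or 3, was left out (adjusted p up to 0.0944). Myc had 57.5 to 113 CPM in control and 45.0 to 55.3 CPM in Nav-Tsc2 mice (log2 fold change -0.67, adjusted p = 0.0404 from edgeR). The call of Myc was lost with the replicate block (adjusted p = 0.1004 from edgeR) and without control replicate 1 or 2 or any one of the Nav-Tsc2 mice, with an adjusted p of up to 0.114.

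Of 20 genes for the replication and transcription of mitochondrial DNA, all tested, 1 was called higher and 1 lower, with a median of -0.16. Lonp1, the matrix protease that also degrades TFAM, rose from 20.1 to 28.8 CPM in control to 39.6 to 53.7 CPM in Nav-Tsc2 mice (log2 fold change 1.05, SE 0.15, adjusted p = 0.00144 from edgeR). Tfb1m, an rRNA methyltransferase of mitochondria, had 16.6 to 24.9 CPM in control and 12.9 to 14.9 CPM in Nav-Tsc2 mice (log2 fold change -0.59, adjusted p = 0.0293 from edgeR). That call was lost with the replicate block (adjusted p = 0.0641 from edgeR), without control replicate 3 or 4 and without any one of the Nav-Tsc2 mice (adjusted p up to 0.0760).

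A further list held 28 genes taken as targets of PPARα or ERRα, in fatty acid oxidation and in related lipid and fuel use. Of these 26 were tested, 5 were called higher (19.2%) and 2 lower (7.69%), with a median of -0.08. Among all genes tested the shares were 9.12% and 8.00%. This list too was made with earlier results of these data known, so the difference in shares is a description. Pdk4, the kinase that shuts pyruvate out of the citric acid cycle, had 0.695, 0.739, 0.742 and 0.281 CPM in control replicates 1 to 4 and 3.79, 6.00, 8.18 and 14.7 CPM in Nav-Tsc2 replicates 1 to 4. Its genotypes did not overlap, and the log2 fold change was 3.73 (SE 0.51, adjusted p = 0.00102 from edgeR), a 13.2-fold higher level. Plin2, a coat protein of lipid droplets, rose from 74.9 to 119 CPM in control to 326 to 416 CPM in Nav-Tsc2 mice (log2 fold change 1.87, SE 0.16, adjusted p = 8.815e-05 from edgeR). The other higher calls were the fatty acid binding protein Fabp3 (1.24), the reductase Decr1 (0.86) and the carnitine carrier Slc25a20 (0.58), on the log2 scale. In the other direction, Acadvl, the very long chain acyl-CoA dehydrogenase, was called lower (log2 fold change -0.66, adjusted p = 0.0214 from edgeR), as was Cpt1a, the gate of fatty acid entry into mitochondria (log2 fold change -0.60, adjusted p = 0.0303 from edgeR). The call of Acadvl was lost with the replicate block (adjusted p = 0.0649 from edgeR) and in the fits that left out control mouse 1 or 2, or Nav-Tsc2 mouse 1 or 2 (adjusted p up to 0.0662). That of Cpt1a was lost when control mouse 1, 2 or 4, or Nav-Tsc2 mouse 1, 3 or 4, was left out (adjusted p up to 0.0863). The summed macrophage and endothelial markers given above were higher in the same genotype as Plin2 and Pdk4. The part of those cells in these and the other calls was not tested.

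Respiratory chain and other genes taken as targets of NRF1, GABP and ERRα numbered 26, of which 25 were tested, 1 was called higher and 1 lower, with a median of 0.11. Atp5b, the catalytic β subunit of ATP synthase, rose from 568 to 673 CPM in control to 794 to 1164 CPM in Nav-Tsc2 mice (log2 fold change 0.55, SE 0.12, adjusted p = 0.0105 from edgeR). Without control replicate 1 or Nav-Tsc2 replicate 2 its log2 fold change was 0.50 and 0.43 and no longer passed the limit of 0.5. Cox17, a copper chaperone for cytochrome c oxidase, fell from 26.5 to 34.9 CPM to 12.4 to 21.7 CPM (log2 fold change -0.82, SE 0.19, adjusted p = 0.0162 from edgeR), a call lost without Nav-Tsc2 replicate 1 (-0.75, adjusted p = 0.0561 from edgeR).

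In the list of 23 genes for protein import, all tested, 8 had an unadjusted p under 0.05 from edgeR. Among all 17178 genes tested, 5797 had one, and nothing is read from the 8. Of the 23, 1 was called higher and 0 lower, with a median of -0.03. The one was Hspa9, the matrix Hsp70 that pulls precursors in, with 89.6, 84.9, 106 and 90.5 CPM in control replicates 1 to 4 and 220, 220, 206 and 223 CPM in Nav-Tsc2 replicates 1 to 4 (log2 fold change 1.23, SE 0.09, adjusted p = 4.40e-05 from edgeR). Of 20 genes for fusion, fission and transport, all tested, 3 were called higher and 1 lower, with a median of -0.03. Mff, the fission receptor for dynamin-related protein, rose from 59.2 to 78.6 CPM to 110 to 122 CPM (log2 fold change 0.72, SE 0.10, adjusted p = 0.00100 from edgeR), and the fusion GTPase Mfn2 (log2 fold change 0.52) and the prohibitin Phb2 (0.71) were the other higher calls. Mfn2 fell under the limit of 0.5 with upper-quartile scaling, and when control mouse 1 or 2, or Nav-Tsc2 mouse 1, was left out. The call of Phb2 was lost without Nav-Tsc2 replicate 1 and with the replicate block (adjusted p up to 0.0578 from edgeR). The protease Yme1l1 was the lower call (log2 fold change -0.52, adjusted p = 0.0393 from edgeR), lost with the replicate block (adjusted p = 0.0734 from edgeR) and without any one mouse other than control replicate 3 or Nav-Tsc2 replicate 3, with an adjusted p of up to 0.107.

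Of the 13 subunits encoded by mitochondrial DNA, 7 were tested and the other 6 had at most 2 counts in a genotype. These genes have close copies in the nuclear genome, so reads can be split or dropped and the values are uncertain. The log2 fold change of the 7 lay between 0.18 and 0.56, with a median of 0.43, and 3 were called higher. The highest was mt-Co1, with 2541 to 3021 CPM in control and 3064 to 4944 CPM in Nav-Tsc2 mice (log2 fold change 0.56, SE 0.14, adjusted p = 0.0187 from edgeR), a call lost without control replicate 3 (0.50) or Nav-Tsc2 replicate 1, 2 or 4 (adjusted p up to 0.0577). The calls of mt-Nd5 (0.51) and mt-Nd6 (0.54) were lost with the replicate block, where the values were 0.49 and 0.52, and in 11 and 7 of the 16 other fits in all. Leaving out control mouse 2, 3 or 4, or Nav-Tsc2 mouse 1, 2 or 4, ended both calls.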

How the data were processed

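The authors' deposited counts were whole reads per gene and library, from SMARTer Ultra Low RNA libraries sequenced as single reads of 50 bases without molecular identifiers, aligned to mm10 with STAR and counted with HTSeq (versions not given in the sources used here). Of the reads, 47.6 to 55.9% were assigned to no gene and were left out. Libraries held 8339220 to 34228180 counts. Intervals from counts would cover counting error only, so errors are between mice. The authors' DESeq2 table, with fold changes and p-values, was not used.

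For each mouse its 3 libraries were added up, and the sums were filtered with filterByExpr, scaled by TMM and tested with edgeR 4.0.16 (R 4.3.3) for genotype, for sex with genotype as a covariate, and for their interaction, with Benjamini-Hochberg adjustment over all genes. The standard error is the log2 fold change over the square root of F. The script was tested on simulated counts. DESeq2 1.42.0 and limma 3.58.1 (24 libraries, mouse as a random effect, consensus correlation 0.0785 for genotype) gave alternatives, with other scalings, no low-count filtering, a block for the replicate number, a sex covariate, equal weights and each mouse left out.

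Members, gene lists and tests were chosen with earlier results of these data known. Named by rule were the 10 members, Tsc2, and in each pathway list the called genes with the smallest adjusted p in each direction and the largest change, and the 4 genes most like Ppargc1a and Ppargc1b over libraries. Other called genes of a list and the cell type markers were named after their values were seen. Symbols matched 47224 of 47643 identifiers, and coordinates are from GENCODE (GRCm38).

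A check of the pairing used 8445 genes. Same-numbered mice of both genotypes departed from their group means together, with r = 0.184, 0.185, 0.108 and 0.199 in numbers 1, 2, 3 and 4, each over 0.1. Pairs with differing numbers but matching sex had r of 0.0627 to 0.198, so equal number and equal sex cannot be told apart here. The pairing comes from these data, and the labels give equal numbers the same sex.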

Additional observations from a re-analysis of the deposited data

Results flagged for a closer look

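In groups of 4 mice, 54 groups of member and named-gene levels were checked for a mouse far from the others, and chance alone marks about 1 in 20. Of these, 7 held one. Among the members, Esrra was 2.19 CPM in Nav-Tsc2 replicate 2 against 0.915 to 0.982 CPM in the other Nav-Tsc2 mice, and Esrrg was 2.40 CPM in Nav-Tsc2 replicate 3 against 0 to 0.237 CPM. Gabpa was 10.6 CPM in control replicate 4 against 17.8 to 18.6 CPM in the other control mice, and Ppara was 0.0181 CPM in control replicate 3 against 0.422 to 0.492 CPM. Among the pathway genes, Myc was 45.0 CPM in Nav-Tsc2 replicate 1 against 53.6 to 55.3 CPM. Pdk4 was 0.281 CPM in control replicate 4 against 0.695 to 0.742 CPM, and Atp5b was 568 CPM in control replicate 1 against 659 to 673 CPM.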

How the results depend on the processing

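Apart from Ppargc1b, whose difference was known when the list was made, 0 members were called between genotypes in the alternatives run, and the genotype by sex comparison gave 0 members in all of them. For sex, 1 member, Esrrg, was called with DESeq2 and with no low-count filter. Of 168 values of single members under alternatives, 160 kept their direction and side of the threshold and 8 changed sign, none of them called: Esrrg to 0.47 with sex as a covariate and 0.33 without control replicate 3, Nrf1 to -0.068 and -0.0081 without control replicate 2 and 3, Gabpa to 0.00076 with libraries weighted equally and 0.010 without Nav-Tsc2 replicate 3, and Tfam to -0.063 without control replicate 4 and -0.030 without Nav-Tsc2 replicate 4. With 1 mouse left out at a time the log2 fold change lay between -3.09 and 0.33 for Esrrg, -0.068 and 0.15 for Nrf1, -0.22 and 0.010 for Gabpa, -0.063 and 0.17 for Tfam, 0.21 and 0.85 for Esrra, and -1.43 and -0.10 for Ppara. Of 289 values of the named pathway genes, 241 kept both, 48 lost the call and 0 changed sign. The pathway genes called lower, 10 of them, became 22 with no limit on the fold change and 6 with the replicate block, and leaving out 1 mouse gave 3 to 11 lower and 13 to 20 higher. The replicate block changed no call of a member or of another pathway gene than those named with it. The cause of these changes was not tested. Esrrg and Ppara did not pass the low-count filter of the fit with 24 libraries. With so few counts, Ppara, Esrra and Esrrg allow no statement on changes smaller than their intervals.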
